A study of Homo sapiens with 6 samples.

Results

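The region described here is the stretch of human 28S ribosomal RNA from position 2501 to position 2895, counted from 1 on the deposited 28S sequence. It was bounded by position, with earlier results of these data known. A position was kept where at least 100 reads crossed it in both libraries of a CMC and mock pair. All 395 positions met this in all 3 reverse transcription conditions, out of 6912 positions that met it over 18S and 28S rRNA together. The stretch holds 146 G, 104 C, 76 A and 69 U. Its U share was 17.5%, against 16.6% of all positions. Of its U, 4 are well established pseudouridines (Ψ), at 2508, 2632, 2839 and 2843, and 65 are not on the list of known pseudouridines and are called unlisted U below. It also holds 7 listed ribose methylations.

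Pseudouridine is an isomer of uridine in which the base is joined to the sugar through a carbon, and in ribosomal RNA it is placed by box H/ACA small nucleolar ribonucleoproteins whose guide RNA pairs with the target. It pairs with adenosine as uridine does, so reverse transcription reads it as U unless it is first labelled. CMC, a carbodiimide, adds a bulky group to Ψ, U and G. The group can block the reverse transcriptase, which then stops, or can be passed with a wrong base put in, which is read as a mutation.

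The 6 libraries came from HEK293T/17, a line of human embryonic kidney cells, and RNA of 200 nt or less had been removed. RNA fragments were treated with CMC or mock-treated, and each was copied with HIV reverse transcriptase (HIV RT) and magnesium, with SuperScript III and manganese, or with SuperScript III and magnesium. The labels' protocols describe no alkaline wash after CMC, the step that commonly takes the group off U and G but leaves it on Ψ. The groups were HIV RT magnesium CMC, HIV RT magnesium mock, SuperScript III manganese CMC, SuperScript III manganese mock, SuperScript III magnesium CMC and SuperScript III magnesium mock, with 1 library in each.

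With 1 library per group no difference has a replicate check, and a call compares 2 libraries, not 2 treatments. A two-sided Fisher's exact test was run per position of both rRNAs, and its p-values were adjusted together by Benjamini-Hochberg. A position was said to rise or fall where the adjusted value was under 0.05 and the difference, CMC minus mock, was at least 5 percentage points (points). The mutation share counts reads that cross a position with a wrong base, in percent of all reads that cross it. The stop share is given in percent of the stops and crossing reads summed, with each stop booked at the template base that was not copied. The median number of reads crossing a position of the stretch was 97636 with CMC and 334917 in mock for HIV RT, 118634 and 209731 for SuperScript III with manganese, and 105518 and 150786 for SuperScript III with magnesium. The widest 95% Wilson interval in the stretch was ±0.358 points for a mutation share and ±0.547 points for a stop share. These intervals cover counting error only, since reads amplified by PCR and not tagged as molecules are not independent of each other.

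The sequences around the listed pseudouridines are shown because all the following values turn on them and on the bases beside them. They are taken from the deposited reference sequence of 28S rRNA, 5′ to 3′, with the pseudouridine written as U in capitals. The lines cover positions 2498 to 2518, 2622 to 2642 and 2829 to 2853, and the last one holds 2 sites.
Ψ2508: ccucggccgaUcgaaagggag
Ψ2632: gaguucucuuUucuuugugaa
Ψ2839 and Ψ2843: uggaacaaugUaggUaagggaaguc
Ψ2632 lies inside a run of pyrimidines, the other 3 do not, and Ψ2839 and Ψ2843 are both followed by A. The 28S gene is part of the repeated ribosomal DNA and codes for a non-coding RNA. Of the 5 copies of this gene listed by RefSeq, RNA28SN5 has the length of the deposited sequence, 5070 nt.

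Unlisted U that stopped the enzyme strongly after CMC are shown next, with the U in capitals at the centre. U2545 is added because it was the only position outside the pyrimidine run whose mutation share rose with HIV RT.
U2524: gggagucgggUucagaucccc
U2545: gaauccggagUggcggagaug
U2665: cuggaaugggUucgccccgag
U2761: ggggagagggUguaaaucucg
U2782: cgccgggccgUacccauaucc
U2524 and U2665 share the letters GGGUUC, in which the named base is the first U. U2782 is followed by A, U2761 and U2545 by G.

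Along the stretch the stop share was above mock by the rule far more often than the mutation share. The stop share rose at 36 positions with HIV RT (9.11% of the 395), against 10.1% of all tested positions. It rose at 36 positions with SuperScript III and manganese (9.11%, against 8.38% of all), and at 39 with SuperScript III and magnesium (9.87%, against 9.22% of all). The shares of positions that rose were thus near those of the whole rRNAs in each condition. Most of the positions that rose were U: 25, 20 and 32 of the 69 U in the same order of conditions, where 37.7%, 26.3% and 43.8% of all tested U rose. Among the 65 unlisted U alone the counts were 21, 17 and 28, against 33.7%, 22.8% and 39.5% of all unlisted U.

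**Figure D1:**
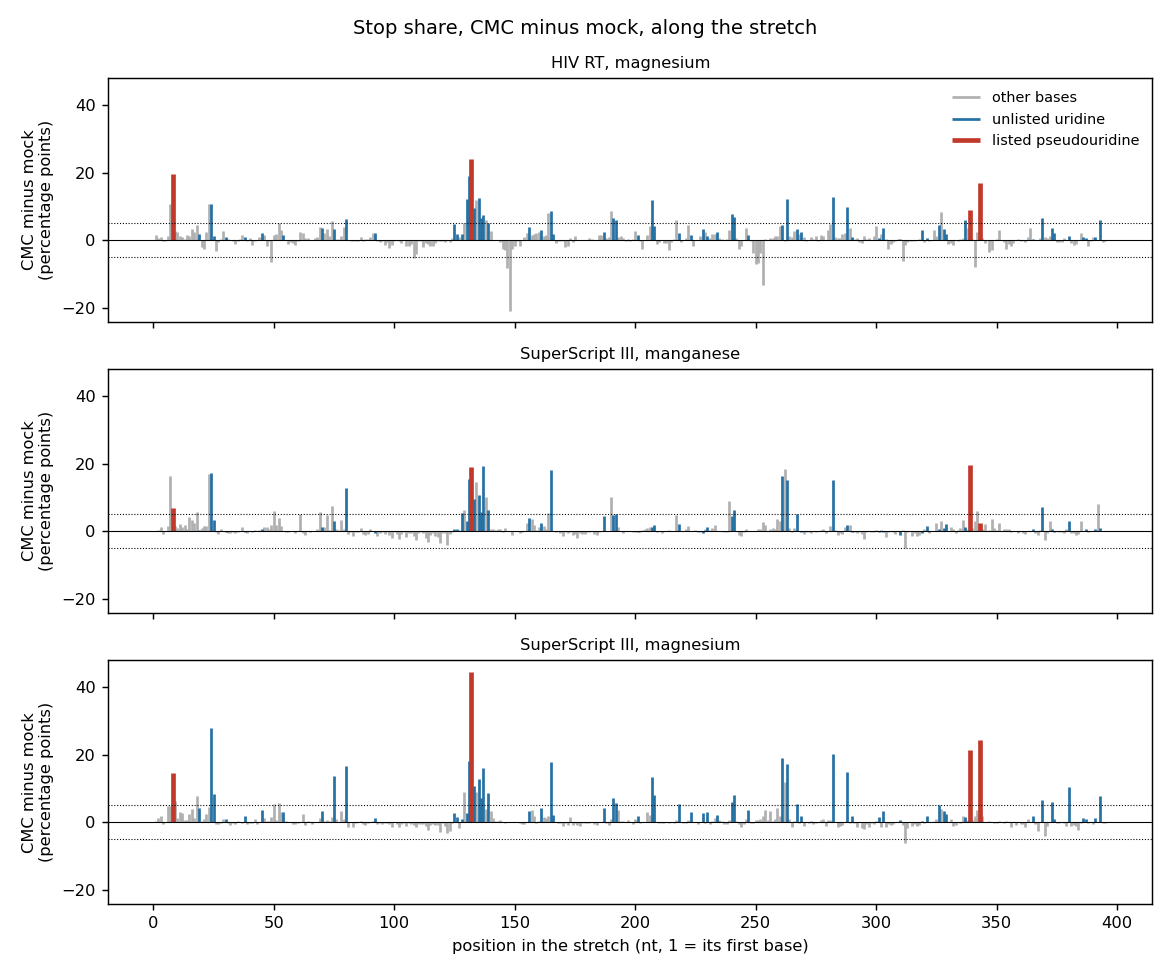
Stop share, CMC minus mock, in percentage points at each of the 395 positions, numbered from 1 at the first base of the stretch, in the 3 conditions. Red lines are the 4 listed pseudouridines, blue lines unlisted U and grey lines the other bases; dotted lines mark 5 points either way. The tallest line is Ψ2632 with SuperScript III and magnesium, at 44.5 points, and the deepest fall is at G2648 with HIV RT, at -20.8 points.

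The mutation share rose at 3 positions with HIV RT, at U2545, Ψ2632 and U2635, where 1.05% of all tested positions rose. It rose at 5 positions with SuperScript III and manganese, at G2574, U2631, Ψ2632, C2634 and U2636 (1.29% of all positions rose). It rose at 0 with SuperScript III and magnesium, where 0.159% of all positions rose. Ψ2632 was the only position of the stretch whose mutation share rose by the rule in more than 1 condition. The share of all tested positions that did so was not counted, so this is not read as a trait of the site. U2631, with a difference of 8.14 points with manganese, had 4.46 points with HIV RT, just under the 5 points of the rule. The mutation share fell by the rule at 0 positions of the stretch in each condition, where 0.101%, 0.332% and 0.0868% of all positions fell in the order HIV RT, SuperScript III with manganese, SuperScript III with magnesium.

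**Figure D2:**
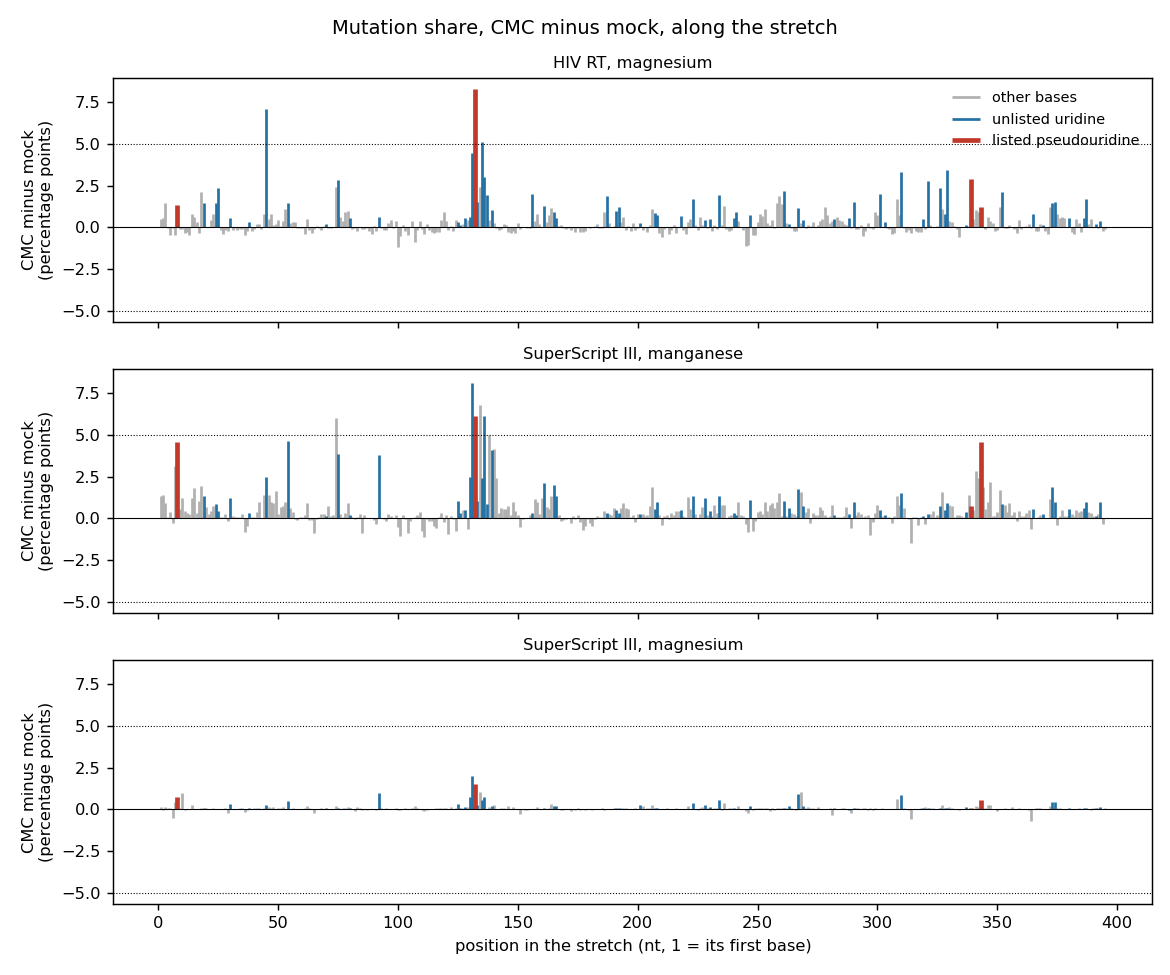
Mutation share, CMC minus mock, in percentage points at each of the 395 positions, numbered as in the plot of stops, with the same colours. Dotted lines mark 5 points either way. The tall lines gather around Ψ2632 in the top and middle panels, and in the bottom panel, SuperScript III with magnesium, the tallest is U2631, whose mutation share was 2.06% with CMC and 0.0635% in mock.

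At the listed pseudouridines stops changed more than mutations, except at Ψ2843 with SuperScript III and manganese. The stop share was higher with CMC in 12 of 12 combinations of site and condition, and rose by the rule in 11. The 4 sites were read in the same pair of libraries in each of the 3 conditions, so the 12 are not replicates. The mutation share was also higher with CMC in 12 of 12, and rose by the rule in 2, both at Ψ2632. Values above mock were common at unlisted U too. Mutations were higher with CMC at 65, 65 and 64 of the 65, and stops at 65, 51 and 65. These are in the order HIV RT, SuperScript III with manganese, SuperScript III with magnesium. Of all tested U, stops rose by the rule at 37.7%, 26.3% and 43.8% in that order, and mutations at 5.81%, 5.90% and 0.521%. The differences at the 4 listed sites ran from 2.37 to 44.5 points for stops and from 0.0878 to 8.27 points for mutations.

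Of the 4 sites, Ψ2632 had the largest mutation difference in all 3 conditions and the largest stop difference in both magnesium conditions. With HIV RT its stop share was 25.2% in the CMC library and 1.32% in the mock library. With SuperScript III it was 21.7% with CMC and 2.68% in mock with manganese, and 47.1% with CMC and 2.58% in mock with magnesium. Its stop difference ranked 1, 3 and 1 among the 69 U of the stretch. Its mutation share was 8.97% with CMC and 0.704% in mock with HIV RT, 6.26% and 0.120% with SuperScript III and manganese, and 1.60% and 0.0896% with SuperScript III and magnesium. Both measures were thus above mock in all 3 conditions, and the condition with the most stops had the fewest mutations. With SuperScript III the stop difference in manganese minus that in magnesium was -25.5 points (95% counting interval -26.2 to -24.7).

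Ψ2508 was stopped most with HIV RT, where the stop share was 22.0% with CMC and 2.54% in mock. With SuperScript III it was 12.7% with CMC and 5.67% in mock with manganese, and 19.6% and 4.86% with magnesium. Its mutation share with CMC was instead highest with SuperScript III and manganese. It was 1.69% with CMC and 0.348% in mock with HIV RT, 4.65% and 0.0591% with SuperScript III and manganese, and 0.804% and 0.0583% with SuperScript III and magnesium. The manganese difference of 4.59 points lay just under the 5 points of the rule.

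Ψ2839 was stopped less with HIV RT than with SuperScript III. Its stop share was 11.7% with CMC and 2.66% in mock with HIV RT, 21.5% and 1.90% with SuperScript III and manganese, and 24.6% and 3.31% with SuperScript III and magnesium. In manganese its stop difference of 19.6 points ranked 1 among the 69 U. The mutation share was 4.02% with CMC and 1.12% in mock with HIV RT, 1.09% and 0.374% with SuperScript III and manganese, and 0.146% and 0.0586% with SuperScript III and magnesium. Mutation at this site was thus higher with HIV RT, and with SuperScript III and magnesium its difference of 0.0878 points ranked only 41 of 69.

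Ψ2843, which lies 4 nt on the 3′ side of Ψ2839, had another pattern. Its stop share was 22.9% with CMC and 5.99% in mock with HIV RT, 4.24% and 1.87% with SuperScript III and manganese, and 26.4% and 2.11% with SuperScript III and magnesium. The manganese difference of 2.37 points ranked 30 of 69 and did not meet the rule, and it was the only one of the 12 that did not. There the mutation share was 4.78% with CMC and 0.224% in mock, while it was 1.82% and 0.622% with HIV RT and 0.605% and 0.0651% with SuperScript III and magnesium. With manganese the mutation difference was thus 1.92 times the stop difference at Ψ2843 and 0.0368 times it at Ψ2839, although both are a U between G and A on this sequence.

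**Figure D3:**
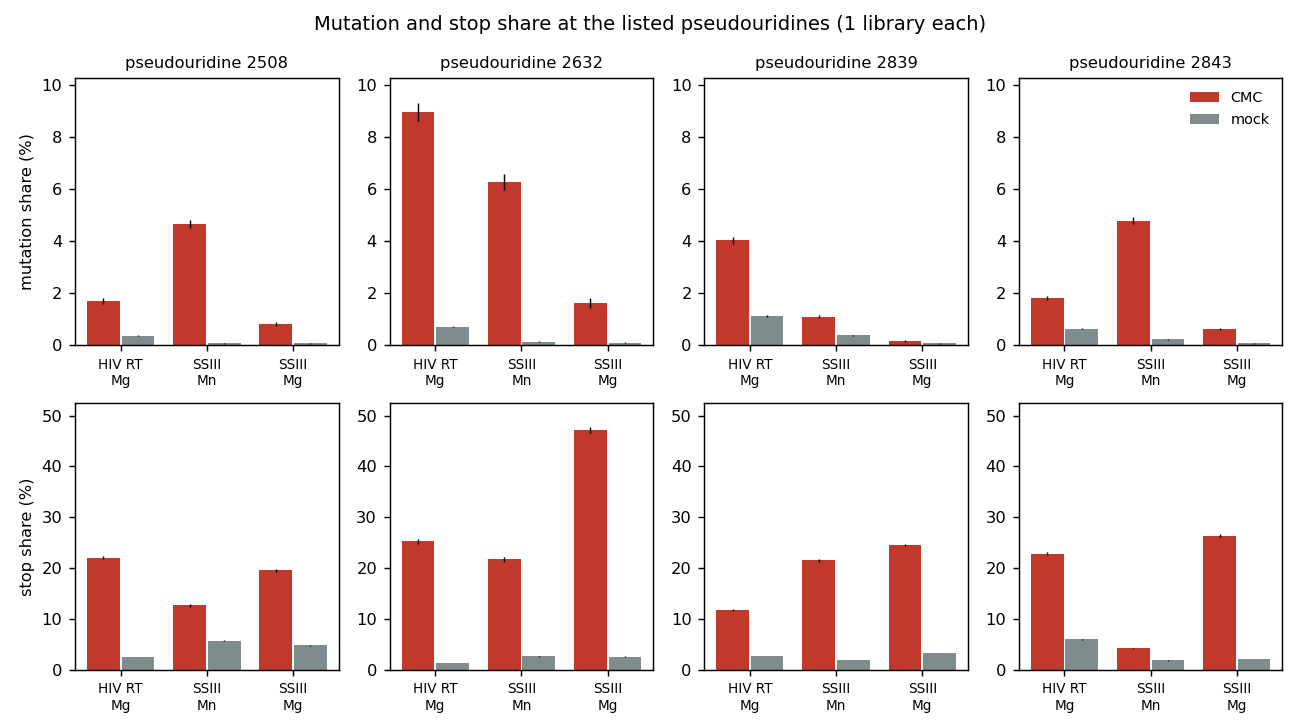
Mutation share (top, percent of crossing reads) and stop share (bottom, percent of stops plus crossing reads) at the 4 listed pseudouridines in the 3 conditions, with CMC in red and mock in grey. Each bar is 1 library, with its 95% Wilson interval. CMC bars stand above mock bars in all 12 pairs of each measure, and Ψ2843 with SuperScript III and manganese has a low stop bar (4.24%) and a high mutation bar (4.78%).

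A read that copies a pseudouridine and then ends is booked at the next template base, 1 nt to the 5′ side. These neighbours were chosen after their values were seen. At A2507, beside Ψ2508, the stop share was 20.5% with CMC and 4.05% in mock with SuperScript III and manganese. It was 12.9% and 2.15% with HIV RT, and 9.90% and 5.16% with SuperScript III and magnesium. With manganese the neighbour's difference of 16.5 points was thus larger than the 6.99 points at Ψ2508 itself, while with the magnesium conditions it was smaller than at the pseudouridine (10.8 against 19.5 points with HIV RT, 4.74 against 14.7 with SuperScript III). G2842, beside Ψ2843, did likewise: its difference was 6.06 points with manganese, against 2.37 at Ψ2843, but 2.57 against 16.9 with HIV RT and 3.71 against 24.3 with SuperScript III and magnesium. At G2838, beside Ψ2839, the neighbour's difference was smaller than at the pseudouridine in all 3 conditions, at 3.62, 0.607 and 0.670 points. With manganese, stops thus lay mostly 1 nt past Ψ2508 and Ψ2843, where the mutation difference was 4.59 and 4.56 points, and at Ψ2839 itself, where it was 0.721 points. At Ψ2632, with 6.14 points, the stop difference was 19.1 points at the site and 15.3 at U2631, its 5′ neighbour. Such stops were not particular to the pseudouridines. Of bases other than U just 5′ of a U, stops rose with manganese at 14 of 55 in the stretch and at 21.8% of all tested. With manganese the stop difference was 18.3 points at G2762 and 15.1 at the unlisted U2763 beside it. It was 16.8 points at G2523 and 17.2 at the unlisted U2524 beside it.

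The wrong base read at the pseudouridines differed between sites. At Ψ2632, C made up 94.0% of mismatched reads with CMC and 67.4% in mock for HIV RT, 98.1% and 93.8% for SuperScript III with manganese, and 94.1% and 84.5% with magnesium. At Ψ2508 C made up 65.3% with CMC and 35.1% in mock, 90.9% and 73.7%, and 90.0% and 52.1% in the same order. The C share was thus higher with CMC at both sites in each condition. With HIV RT this also held for the pooled unlisted U of the stretch, at 61.6% with CMC and 43.4% in mock. With SuperScript III their C share was lower with CMC, at 55.2% and 64.7% with manganese and 56.4% and 65.8% with magnesium. At Ψ2839 the C share was 67.3% with CMC and 29.4% in mock, 55.1% and 45.0%, and 57.9% and 60.7%, so with SuperScript III and magnesium it was not higher. At Ψ2843 with SuperScript III and manganese A made up 64.3% with CMC and 44.3% in mock, and C 18.2% with CMC and 47.7% in mock. At the same site with SuperScript III and magnesium A made up 25.9% with CMC and 53.3% in mock, G 37.4% and 13.1%, and C 36.7% and 33.6%. With HIV RT C led at Ψ2843, with 66.4% with CMC and 44.3% in mock. With CMC the leading wrong base at this site was thus C with HIV RT and A with manganese, while G and C were nearly level with SuperScript III and magnesium. Some shares of the SuperScript III magnesium mock library rest on few mismatched reads, between 96 and 116 at the 4 sites, the fewest at Ψ2508, where the 95% Wilson interval of the C share runs from 42.2% to 61.8%.

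**Figure D4:**
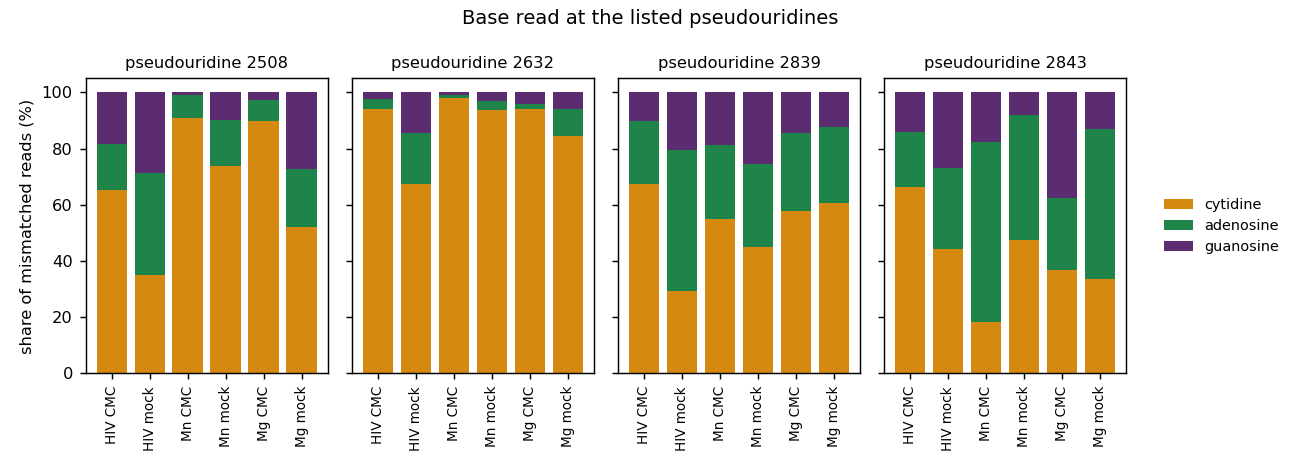
Base read in mismatched reads at the 4 listed pseudouridines, as percent of mismatched reads, for CMC and mock libraries of HIV RT (HIV), SuperScript III with manganese (Mn) and SuperScript III with magnesium (Mg). Each bar is 1 library, and its 3 parts sum to 100%. C fills most of every bar of Ψ2632, while A fills 64.3% of the manganese CMC bar of Ψ2843.

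Ψ2632 lies in a run of 13 pyrimidines, from 2625 to 2637, with 10 U and 3 C, and both measures rose there at several bases. The run was chosen because it holds the largest stop difference of the stretch with SuperScript III and magnesium. Its counts are thus descriptions. Stops rose at 9, 9 and 8 of its 13 positions with HIV RT, with manganese and SuperScript III, and with magnesium and SuperScript III, and at 27, 27 and 31 positions in the rest of the stretch. Over all tested positions stops rose at 10.1%, 8.38% and 9.22%, and over all tested U, the main base of the run, at 37.7%, 26.3% and 43.8%. Mutations rose at 2, 4 and 0 positions of the run, where 1.05%, 1.29% and 0.159% of all positions rose. Over all tested U mutations rose at 5.81%, 5.90% and 0.521%. In the rest of the stretch the mutation share rose at 1 position with HIV RT and at 1 with SuperScript III and manganese. The fewest crossing reads of the stretch were also here, at U2630, with 15202 in the SuperScript III magnesium CMC library.

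U2631, the base copied after Ψ2632, had a mutation share of 8.25% with CMC and 0.116% in mock with SuperScript III and manganese, which was above that of Ψ2632 in the same library. It was 4.81% and 0.347% with HIV RT, and 2.06% and 0.0635% with SuperScript III and magnesium. Its stop share was 19.9% with CMC and 0.926% in mock with HIV RT, 16.8% and 1.45% with SuperScript III and manganese, and 20.3% and 2.02% with SuperScript III and magnesium. Its stop share with CMC was thus between 16.8% and 20.3% in all 3 conditions, while that of Ψ2632 was 47.1% with SuperScript III and magnesium.

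U2635 had a mutation share of 6.09% with CMC and 0.943% in mock with HIV RT, 2.55% and 0.151% with SuperScript III and manganese, and 0.656% and 0.0677% with SuperScript III and magnesium. U2636 had 4.19% and 1.15%, 6.25% and 0.0950%, and 0.777% and 0.0549% in the same order. The neighbouring U thus had their highest mutation share in different conditions, U2635 with HIV RT and U2636 with manganese. At U2637, the last of the run, the stop share was 9.94% with CMC and 2.57% in mock with HIV RT, 22.5% and 3.34% with SuperScript III and manganese, and 19.2% and 3.13% with SuperScript III and magnesium. C was the most frequent wrong base at U2631, U2635 and U2636 in all 3 CMC libraries, between 78.0% and 97.0% of mismatched reads.

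C2634, between Ψ2632 and U2635, is one of the few bases other than U whose mutation share rose. It was 7.29% with CMC and 0.460% in mock with SuperScript III and manganese, 2.65% and 0.242% with HIV RT, and 1.21% and 0.175% with SuperScript III and magnesium. U made up 97.6%, 96.1% and 95.9% of the mismatched reads of these CMC libraries. C2634 was thus read as U where it was misread, while the U around it were read as C.

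**Figure D5:**
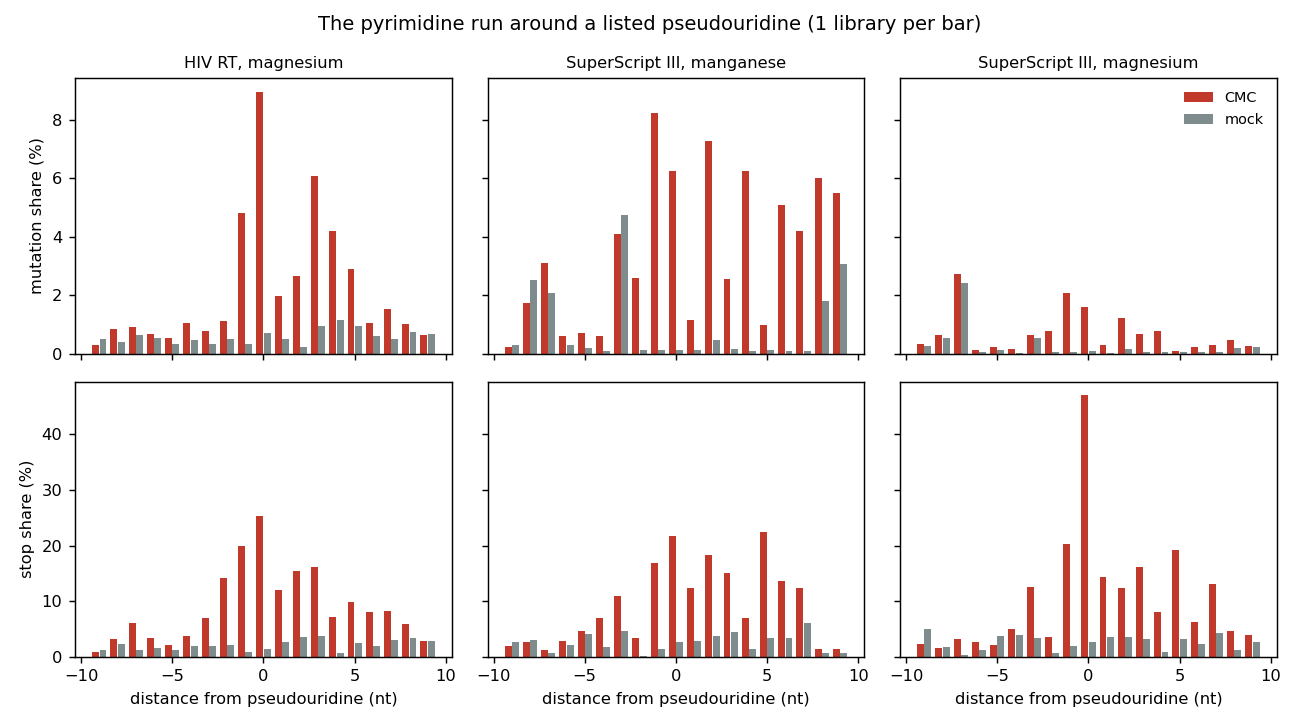
Mutation share (top) and stop share (bottom), in percent, at the bases within 9 nt of Ψ2632 (distance 0), in the 3 conditions. Red bars are CMC and grey bars mock, 1 library per bar. Mutations are spread over U and C on both sides of Ψ2632 with manganese, and its stop bar stands out most with SuperScript III and magnesium, at 47.1%.

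Outside the run, U2545 had a mutation share of 7.76% with CMC and 0.687% in mock with HIV RT, 3.00% and 0.530% with SuperScript III and manganese, and 0.379% and 0.0943% with SuperScript III and magnesium. Its stop share was 3.88% and 1.63%, 1.63% and 1.06%, and 4.41% and 0.791% in the same order and did not meet the rule in any condition. It thus had mutations without a called rise in stops. A made up 74.4% of its mismatched reads with CMC and 59.8% in mock with HIV RT, unlike the C-rich reads of the run. G2574, which is followed by a U, had 8.57% mutated reads with CMC and 2.57% in mock with SuperScript III and manganese, 3.25% and 0.851% with HIV RT, and 0.415% and 0.185% with SuperScript III and magnesium. U made up 83.5% of its mismatched reads with CMC and 89.5% in mock with manganese, so the leading wrong base was the same in both.

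Several unlisted U stopped the enzymes as strongly as listed sites. The stop share rose in any condition at 35 U of the stretch, and in all 3 conditions at 17. Of these 17, 3 are listed, Ψ2508, Ψ2632 and Ψ2839. Of all tested U, stops rose at 37.7% with HIV RT, and with SuperScript III at 26.3% in manganese and 43.8% in magnesium. The share of all tested U that rose in any or in all 3 conditions was not counted. The 35 and 17 are thus not read as a trait of the stretch. U2524 had a stop share of 14.0% with CMC and 3.13% in mock with HIV RT, 23.0% and 5.83% with SuperScript III and manganese, and 33.3% and 5.48% with SuperScript III and magnesium. Its magnesium difference of 27.9 points was below that of Ψ2632 and above those of Ψ2508, Ψ2839 and Ψ2843. U2665 had 10.4% and 1.65%, 23.0% and 4.83%, and 23.0% and 5.07% in the same order. U2782 had 15.2% and 2.46%, 16.7% and 1.61%, and 25.5% and 5.24%. All 3 were above mock in each condition, while their mutation shares with CMC stayed between 0.122% and 2.21%.

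The letters GGGUUC that U2524 and U2665 share were counted on the deposited strand of both rRNAs after these values were seen, with the first U as the site. They occur 5 times, in 0.0722% of all windows of that length, and 2 of the 5 are in the stretch. At the first U of the others the stop difference was 7.67, 18.7 and 21.2 points at 18S position 422, 7.96, 10.1 and 13.6 points at 28S position 2408, and 4.55, 1.33 and 4.28 points at 18S position 1160, in the order HIV RT, SuperScript III with manganese, SuperScript III with magnesium. It met the rule in all 3 conditions at 4 of the 5. Of these 4, U2524 and U2665 gave the letters after their values were seen, so they do not bear on the match. Among the others, 18S position 422 and 28S position 2408 met it and 18S position 1160 did not. Of all U followed by U, stops rose at 56.3%, 37.7% and 59.9% in the same order of conditions. The match is a description of letters only.

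At U2761 and its neighbours the enzymes differed. The stop share of U2761 was 5.79% with CMC and 1.41% in mock with HIV RT, 21.6% and 5.19% with SuperScript III and manganese, and 23.2% and 4.25% with SuperScript III and magnesium. At G2762 it was 5.88% and 6.11%, 27.6% and 9.32%, and 22.5% and 10.7% in the same order. At U2763, chosen after its values were seen, it was 19.6% and 7.48%, 21.3% and 6.19%, and 25.1% and 7.86%. HIV RT thus stopped more with CMC at U2763 alone by the rule, and SuperScript III at all 3 bases. The HIV RT tables carry another name than the SuperScript III tables, and whether reads were handled differently at their edges is not given, so enzyme and handling cannot be told apart.

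The base on the 3′ side, which is copied just before the U, went with the stop difference. Of 9 U followed by A, stops rose at 8, 5 and 9 in the order HIV RT, SuperScript III with manganese, SuperScript III with magnesium, where 76.6%, 61.7% and 81.8% of all such U rose. Of 14 followed by U, 10, 6 and 10 rose (56.3%, 37.7% and 59.9% of all). Of 19 followed by G, 5, 5 and 7 rose (24.1%, 18.1% and 32.9% of all), and of 27 followed by C, 2, 4 and 6 (18.1%, 8.38% and 24.1% of all). The share that rose was thus highest before A, then U, then G, then C in each condition, in the stretch as over both rRNAs. The median stop difference was 9.05, 7.11 and 16.7 points for U before A, and 1.93, 0.141 and 1.98 points for U before C. The median mutation difference had another order, with 1.93 points for U before G and 0.533 points for U before A with HIV RT.

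Bases other than U whose stop share rose mostly lay just 5′ of a U. They were 10 of 11 with HIV RT, 14 of 16 with SuperScript III and manganese, and 4 of 7 with SuperScript III and magnesium. Of the 55 such bases in the stretch the 10, 14 and 4 that rose compare with 23.8%, 21.8% and 9.21% of all tested bases of this kind. Of the 271 other bases that are neither U nor followed by U, 1, 2 and 3 rose (0.984%, 1.66% and 1.01% of all such bases). Of the bases other than U in the stretch, only C2629 and C2634, both in the pyrimidine run, rose in all 3 conditions. The share of all tested bases other than U that did so was not counted, so this is not read as a trait of the run.

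Over the 65 unlisted U the median stop difference was 3.29 points for HIV RT and, for SuperScript III, 1.37 points in manganese and 3.50 points in magnesium. Over the unlisted U of the rest of both rRNAs it was 2.91, 1.17 and 3.52 points. CMC libraries had the higher stop share at 65, 51 and 65 of the 65, and at 93.5%, 77.3% and 92.1% of unlisted U elsewhere. With manganese some unlisted U thus had fewer stops with CMC, in the stretch as elsewhere. The median mutation difference was 0.911, 0.851 and 0.105 points in the stretch and 0.858, 0.704 and 0.126 points elsewhere. The mutation share was higher in the CMC library at 65, 65 and 64 of the 65, and at 93.2%, 98.5% and 96.4% elsewhere. Stop and mutation differences of unlisted U in the stretch were thus close to those elsewhere. Across the 69 U, Spearman's rho between the stop differences was 0.701 for HIV RT with SuperScript III in manganese, 0.779 for HIV RT with SuperScript III in magnesium and 0.796 for both SuperScript III conditions. For mutations it was 0.501, 0.154 and 0.723. Between mutation and stop differences within a condition it was 0.0224, 0.0316 and -0.0198. The points share libraries and depth, so these are descriptions across positions.

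Stops that were lower with CMC lay mainly in the HIV RT pair. The stop share fell at 9 positions with HIV RT (2.28%, against 3.66% of all tested positions), of which 8 were G and 1 was A. The 8 are 5.48% of the G of the stretch, near the 5.89% of all tested G that fell. It fell at 1 with SuperScript III and manganese (1.98% of all fell) and at 1 with SuperScript III and magnesium (1.84% of all), A2812 in both. The sequences around G2648 and G2753, the largest falls with HIV RT, and around A2812 are shown for comparison, with the base that fell in capitals.
G2648: gugaagggcaGggcgcccugg
G2753: aaaauccgggGgagagggugu
A2812: cuccaaggugAacagccucug
At G2648 the HIV RT stop share was 5.64% with CMC and 26.5% in mock, the highest mock stop share of the stretch. It was 2.70% and 2.73% with SuperScript III and manganese, and 1.29% and 1.07% with SuperScript III and magnesium. At G2753 it was 7.01% and 20.2%, 8.16% and 5.42%, and 5.36% and 3.42% in the same order. Both were thus stops of the HIV RT mock library that were lower with CMC and were not seen at that size with SuperScript III.

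Of the 10 positions where the HIV RT mock library stopped at 10% or more, 9 fell. The other, G2781, had 14.8% with CMC and 10.1% in mock. With SuperScript III, 1 of 3 such positions of its mock library fell with manganese and 1 of 5 with magnesium. These positions were picked by the mock value that also enters the difference, so the counts are descriptions. The same counts over both rRNAs are not given here, so they are not read as a trait of the stretch. Of the 9 falls with HIV RT, 8 were followed by G, which is 6.25% of the bases other than U before a G in the stretch and near the 5.58% of all such bases. At A2812, 3 nt 5′ of the ribose-methylated Am2815, the stop share was 3.04% with CMC and 4.55% in mock with HIV RT. With SuperScript III it was 9.32% and 14.3% in manganese, and 7.13% and 13.3% in magnesium.

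Ribose methylation, which adds a methyl group to the sugar and is placed by box C/D small nucleolar ribonucleoproteins, is listed at 7 positions of the stretch, of which Am2815 had the most mutated reads with HIV RT. It had a mutation share of 2.28% with CMC and 2.33% in mock with HIV RT, the highest mock mutation share of the stretch in that condition, and U made up 94.5% and 92.5% of the mismatched reads. The SuperScript III libraries gave 0.209% with CMC and 0.148% in mock with manganese, and 0.120% and 0.115% with magnesium. The HIV RT values thus stood above the others at this site, with and without CMC. Um2837, 2 nt 5′ of Ψ2839, was the listed methylation whose stop share rose, with 9.62% with CMC and 3.57% in mock for HIV RT. It was 2.95% and 1.58% with SuperScript III and manganese, and 3.65% and 2.06% with SuperScript III and magnesium.

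At 3 G among the highest mock mutation shares, SuperScript III libraries held many mutated reads with and without CMC. G2510, 2 nt 3′ of Ψ2508, had 5.65% mutated reads with CMC and 4.42% in mock with manganese, and 4.51% and 3.55% with magnesium. With HIV RT it had 0.675% with CMC and 0.774% in mock, so the high share was not seen with this enzyme. A made up 97.4% of the mismatched reads of the manganese mock library and 99.2% of those of the magnesium mock library, and 29.0% with HIV RT. G2694 had 5.99% with CMC and 5.09% in mock with manganese, 1.17% and 1.08% with magnesium, and 0.835% and 0.213% with HIV RT, and A made up 99.5% of mismatched reads in the manganese mock library. G2781 had the highest manganese mock mutation share of the stretch, with 7.08% with CMC and 6.28% in mock, against 0.992% and 1.33% with magnesium and 0.863% and 0.495% with HIV RT, and it was read mostly as U, in 84.1% of mismatched reads of the manganese mock library. G2510 and G2781 were thus among the highest mock mutation shares in both SuperScript III conditions, and G2694 with manganese only. The wrong base was not the same at all 3. Human ribosomal DNA has many near-identical copies whose reads are not separated here, and its part in these values was not tested.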

How the data were processed

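Per the labels' protocols, RNA over 200 nt from HEK293T/17 cells was fragmented, treated with CMC or mock-treated, given a 3′ adapter and copied in 1 of 3 ways, and the libraries shared a lane. Per the submitters' processing notes, Trimmomatic 0.32 and Bowtie 1.0 were used; how they were set and where the rRNA sequences came from is not stated in these sources. Per the file headers, the deposited tables give for each rRNA position the counts of crossing reads in all and by base, and the stops as another count. The deposited mismatch rate and stop frequency are fractions from 0 to 1, and both were recomputed from the counts within 1e-09 in 12 of 12 tables.

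Samples were grouped by their labels into 6 groups of 1 library. Shares, 95% Wilson and Newcombe intervals and Fisher's exact tests were computed with scipy 1.17.1 and pandas 2.3.3 under Python 3.11.15. The calls were first tested on simulated data. The region, the list of modified sites, written from general knowledge and kept where the reference base matched, the naming rule and the tests were chosen with earlier results of these data known. Of 108 listed pseudouridines 100 fell on a U. Positions named are the listed modifications, the largest rises and falls of each pair, rises shared by all 3 conditions, and the highest mock values; a position chosen after its values were seen is said to be so. Alternatives were other size limits, a higher read minimum, the Newcombe interval in place of the test, centring, other averages and stops read 1 nt on.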

Additional observations from a re-analysis of the deposited data

Results flagged for a closer look

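At the listed pseudouridines, differences between conditions of at least 10 points whose 95% counting interval leaves out 0 are given here. Each interval covers counting error only and each condition has 1 library per treatment, so the gaps have no replicate check. The values are differences between the stop differences, each of which is CMC minus mock.

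At Ψ2508, HIV RT minus SuperScript III with manganese was 12.5 points (12.1 to 12.9). At Ψ2632, HIV RT minus SuperScript III with magnesium was -20.6 points, and SuperScript III with manganese minus that with magnesium was -25.5 points. At Ψ2839, HIV RT minus SuperScript III was -10.5 points for manganese and -12.2 points for magnesium. At Ψ2843, HIV RT minus SuperScript III with manganese was 14.5 points, and SuperScript III with manganese minus that with magnesium was -21.9 points. Ψ2839 and Ψ2843, 4 nt apart, thus differed in opposite directions between HIV RT and SuperScript III with manganese. Differences in read handling between the HIV RT and SuperScript III tables cannot be told apart from the enzyme, and this does not touch the gaps between both SuperScript III conditions.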

How the results depend on the processing

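The size limit set the counts. With 2 points in place of 5, mutations rose at 18 positions with HIV RT and 22 with SuperScript III and manganese, stops rose at 94, 70 and 79 (HIV RT, SuperScript III with manganese, SuperScript III with magnesium), and stops fell at 27, 8 and 8. With 10 points mutations rose at 0 and 0, stops rose at 13, 17 and 19, and stops fell at 2, 0 and 0. Centring each base on its own median over unlisted positions left 0 falls in stops with SuperScript III and manganese, against 1, rises in stops at 25, 33 and 26 positions, against 36, 36 and 39, and rises in mutations with HIV RT at 2, against 3, since U2635 had 4.29 points after centring. Over unlisted U the differences are skewed: pooled reads gave 1.38, 1.18 and 0.192 points for mutations and 3.85, 3.39 and 6.39 for stops, and the unweighted mean gave 1.35, 1.24 and 0.231, and 4.39, 3.73 and 6.27. At Ψ2839 with SuperScript III and magnesium, the mutation difference minus the median of unlisted U was -0.0374 points, so there it lay below a typical U. Reading stops 1 nt to the 3′ side ended 7 of the 12 stop comparisons at pseudouridines: 2.73, 0.366 and 0.648 points at Ψ2508, Ψ2839 and Ψ2843 with HIV RT, 1.60 and 1.09 at Ψ2508 and Ψ2839 with manganese, and 0.805 and 1.75 at Ψ2839 and Ψ2843 with SuperScript III and magnesium. A minimum of 1000 reads and the Newcombe interval changed no count by over 1.5 times. No paired analysis was possible within a condition because each group has 1 library. A fit of CMC against mock with condition as a block, which would take the 3 conditions as replicates, was not run.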
